A study of Rattus norvegicus with 6 samples.

Results

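Nlrp3 and Ptk2b are protein-coding genes studied in vascular inflammation and in angiotensin signalling. Their RNA was measured here in thoracic aortas of the spontaneously hypertensive rat (SHR), an inbred strain whose blood pressure becomes high without intervention. Members were the catalogue probes whose RefSeq mRNA accession belongs to either gene. These were 2 of the 30 genes that could be named on an array of 38804 different probes. Nlrp3 was read by probe A_44_P281733 and Ptk2b by probe A_44_P482346, each printed as 10 spots on every array. The RefSeq table lists 10 coding and 2 noncoding transcripts for Nlrp3 and 7 coding transcripts for Ptk2b. The probe letters were not used here, so which transcripts each probe reads is not known. The gene table is of another genome build than the one named in the array headers, so no coordinates are given.

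Nlrp3 is a cytosolic sensor. After a priming signal raises its expression, it assembles with the adaptor Pycard and with caspase-1 into the inflammasome, which matures interleukin-1 beta and interleukin-18. It is best known from macrophages, and is also studied in cells of the vessel wall. Ptk2b, also called Pyk2, is a nonreceptor tyrosine kinase of the focal adhesion kinase family, activated by calcium and by receptors such as the angiotensin II receptor. In smooth muscle cells it passes that signal to Src kinases. Its activity is set largely by phosphorylation, which an RNA array does not read.

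The labels describe SHR rats aged 12 weeks at the start and 16 weeks at collection, randomly split into both arms. The peptide arm received the Ganoderma lingzhi oligopeptide SYP, from a medicinal mushroom, by intravenous injection over 28 days at a daily dose of 5 mg/kg. The control arm was given saline. No allele or transgene is named, no rats of a strain with normal blood pressure are among the 6 samples, and 1 field calls the rats female while another calls them male. The 3 control and 3 peptide aortas are separate rats, each on its own one-colour array. The arrays came from 2 slide scans, with all controls and peptide 1 on slide 1 and peptide 2 and 3 on slide 2. The 75th percentile of the processed (background-subtracted) signal lay between 224 and 251 scanner units on slide 1, and at 336 and 328 on slide 2. Between 95.4% and 98% of probes were well above background on each array. With so few arrays, their number sets the precision.

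The first question was whether either transcript was detected in the aorta. Nlrp3 was dim but measured on every array, and Ptk2b was measured clearly. Nlrp3 had a mean processed signal (geometric mean of the spots kept) of 16.4, 17.4 and 20.7 in control 1, 2 and 3, and of 17.8, 19.7 and 19.1 in peptide 1, 2 and 3. No array stood apart, and the highest was 1.26 times the lowest. For Ptk2b these signals were 115, 78.5 and 109 in the controls and 98.6, 141 and 75.9 in the peptide arrays. The highest and the lowest Ptk2b array were thus both peptide arrays on slide 2, and they differed 1.86-fold.

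All 60 Nlrp3 spots and all 60 Ptk2b spots were flagged by the scanner software as well above background, and none was saturated. Most probes share that flag, with 95.4% to 98% of all probes well above background on each array. The raw Nlrp3 signal was 2.55 to 3.5 times the local background, and that of Ptk2b 6.58 to 10.7 times. Negative control spots, which are designed to bind no transcript and numbered 145 to 151 per array after outliers were left out, had a median processed signal of 1.35 to 2.31. The brightest of them on any array reached 3.46, while the dimmest Nlrp3 spot kept was at 12.7 and the dimmest Ptk2b spot at 69.5. The mean Nlrp3 signal was 8.4, 8.13 and 8.97 times the negative control median in the controls, and 9.75, 14.6 and 13.1 times in the peptide arrays. The rise on slide 2 went with lower negative controls there, at 1.35 and 1.46 against 1.83 to 2.31 on slide 1. Against the lowest signal flagged as well above background on the same array, the margin of Nlrp3 was smaller. It was 1.83 to 2.19 times that signal on slide 1, and 3.02 and 2.78 times in peptide 2 and 3.

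**Figure D1:**
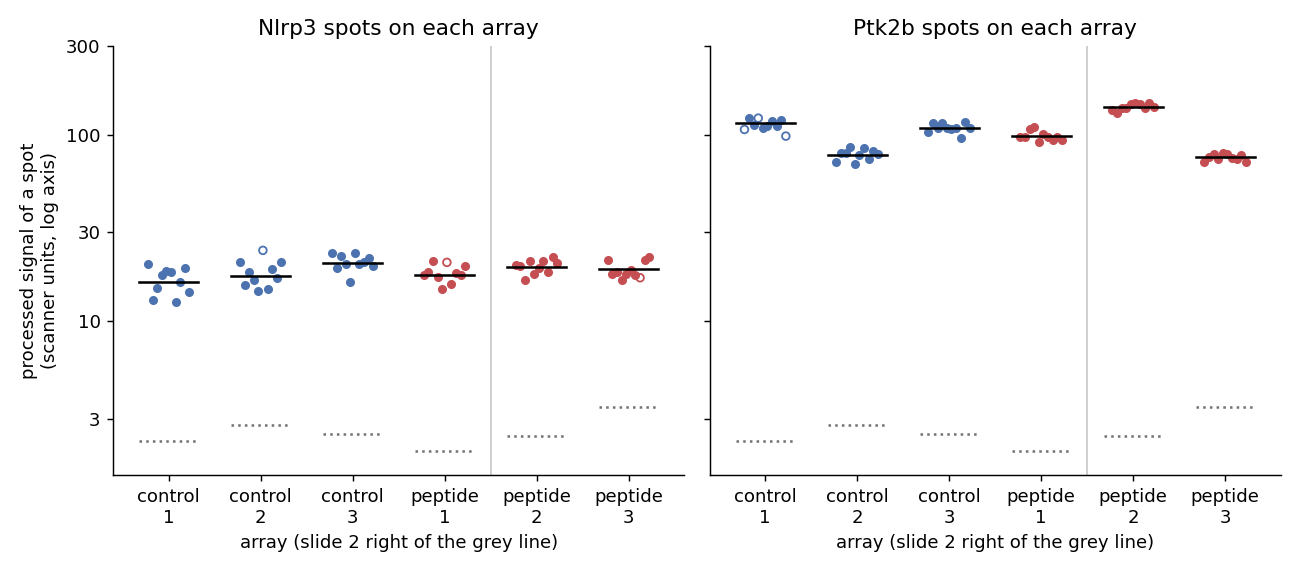
Processed signal of each of the 10 spots (scanner units, log axis) of Nlrp3 and Ptk2b on the 6 arrays, controls in blue and peptide in red. Open points are spots marked as outliers and left out, black bars are the geometric mean of the spots kept, and dotted bars are the brightest negative control spot of that array, which lies below every spot of either gene.

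Spots of the same probe measure the technical error within an array. For Nlrp3 the coefficient of variation among spots ran from 8.29% to 16.1%, and for the brighter Ptk2b from 3.98% to 6.94%. The software marked 3 of 60 spots as outliers for each gene. For Nlrp3 these were 1 spot each on control 2, peptide 1 and peptide 3, and for Ptk2b all 3 were on control 1. On the log2 scale the standard error over spots was at most 0.08 for Nlrp3 and at most 0.03 for Ptk2b. Arrays of the same group differed by more than this, with SDs of 0.23 and 0.2 (Nlrp3, control and peptide) and of 0.23 and 0.49 (Ptk2b). Averaging spots therefore leaves the spread between rats and arrays as the main error of both genes.

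The comparison implied by the design is peptide against control. The normalised log2 signal is the log2 processed signal minus the array's 75th percentile, so 0 means as bright as that percentile. For Nlrp3 it was -3.94, -3.68 and -3.49 in control 1, 2 and 3, and -3.75, -4.09 and -4.1 in peptide 1, 2 and 3. The groups overlapped, since peptide 1 lay among the controls, and peptide 2 and 3 lay below all of them. The control mean was -3.7 ± 0.23 (SD, n = 3) and the peptide mean -3.98 ± 0.2 (SD, n = 3). The difference was -0.28 (SE 0.28, 95% interval -0.9 to 0.34) with a limma unadjusted p of 0.346 and a Benjamini-Hochberg adjusted p of 0.769. The exact permutation test (two-sided) gave p = 0.2, where 0.1 is the smallest that 3 against 3 arrays allow. Without control 3, the highest array, the Nlrp3 difference was -0.17 (SE 0.36).

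Ptk2b was at -1.13, -1.51 and -1.09 in the controls and at -1.28, -1.25 and -2.11 in the peptide arrays. Peptide 3 lay below every other array, and peptide 1 and 2 lay within the range of the controls. The control mean was -1.24 ± 0.23 (SD, n = 3) and the peptide mean -1.55 ± 0.49 (SD, n = 3). The difference was -0.3 (SE 0.32, 95% interval -1.02 to 0.41) with a limma unadjusted p of 0.367 and an adjusted p of 0.775, and the exact permutation test gave p = 0.5 (two-sided). It rested on peptide 3: without that array it was -0.02 (SE 0.38, 95% interval -0.84 to 0.79).

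**Figure D2:**
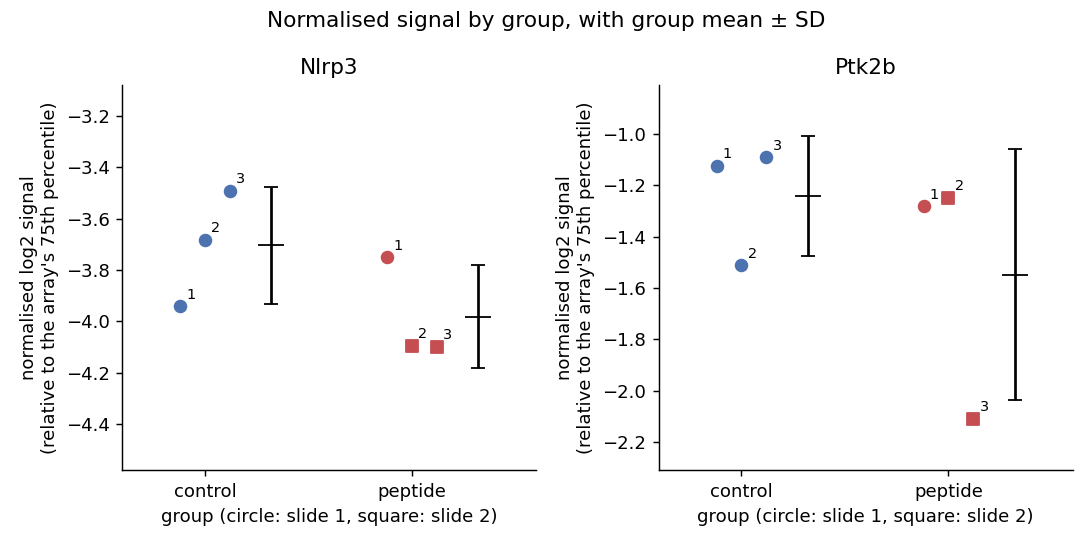
Normalised log2 signal of Nlrp3 and Ptk2b by group, with replicate numbers beside the points, circles for slide 1 and squares for slide 2. Bars are the group mean ± SD (n = 3), the axes span the same log2 range, and the groups overlap for both genes.

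Neither gene passed the adjusted threshold of 0.05, as 0 of 37723 probes did (0%), and neither had an unadjusted p under 0.05, which 1068 probes had (2.83%). Groups that did not overlap were found for 5.47% of the probes tested and for neither gene. Smaller p-values than theirs were found for 45% of the probes in the case of Nlrp3 and 47.3% for Ptk2b. The median difference of all tested probes was itself -0.21, and relative to it Nlrp3 was at -0.06 and Ptk2b at -0.09. In linear terms the intervals cover a peptide level from 0.537 to 1.27 times the control level for Nlrp3, and from 0.494 to 1.33 times for Ptk2b.

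The peptide arrays split by slide. Against the mean of the controls, peptide 1 on the shared slide was at -0.05 for Nlrp3 and -0.04 for Ptk2b, and the mean of peptide 2 and 3 on the other slide was at -0.39 and -0.44. When slide entered the fit as a block, the Nlrp3 difference was -0.05 (95% interval -0.79 to 0.7) and the Ptk2b difference was -0.04 (95% interval -1.01 to 0.93), and the limma adjusted p was 1 in each case. These blocked values rest on 1 treated rat against 3 controls, and slide 2 holds no control, so for peptide 2 and 3 an effect of the peptide and one of the slide cannot be told apart.

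Peptide 2 and 3 shared slide 2. For Nlrp3 their log2 gap was 0.004 with 75th percentile scaling, below the standard error over spots, and the deposited log2 values of these arrays were 4.36 and 4.26. Ptk2b differed between the same arrays by 0.86, or 1.81-fold, and 5.94% of the probes differed by more. Its deposited log2 values were 6.94 and 6.17. That gap within a slide and a group is larger than the gap between the group means. Among the controls, all on slide 1, Nlrp3 spanned 0.45 and Ptk2b 0.42, each also more than its group difference. Gaps between single arrays and differences of group means are unlike measures, so these comparisons are description only. Control 2 carried the lowest Ptk2b value of the controls and the middle Nlrp3 value, and control 1 the lowest Nlrp3 value.

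Print positions were compared as a technical check, since spots at the same position recur on every array. The difference between groups was below 0 at 10 of 10 positions for Nlrp3 (-0.57 to -0.1) and at 10 of 10 for Ptk2b (-0.41 to -0.2). For peptide 1 alone it was below 0 at 6 of 9 positions for Nlrp3, the tenth being an outlier spot, and at 6 of 10 for Ptk2b. At the position of that outlier spot the control 2 spot was also left out. The Nlrp3 value of -0.57 there thus compares peptide 2 and 3 with control 1 and 3. Peptide 3 was left out at 1 other Nlrp3 position. Control 1 was left out at 3 Ptk2b positions, among them the one with the value of -0.2. Spots of an array share its RNA and also the value subtracted from it in scaling, which moves all positions together. With no scaling between arrays, the difference over the spots kept was 0.06 for Nlrp3 and 0.03 for Ptk2b. The counts of 10 of 10 below 0 thus depend on the scaling and do not show a direction. The spread over positions describes how evenly the probe was read, and positions are not replicates of the treatment.

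The Nlrp3 difference depended on how arrays were scaled. Before scaling, its log2 difference was 0.06 (SE 0.21). Its signal on slide 2 lay within the range of slide 1, while the 75th percentile differed up to 1.5-fold between arrays and was highest on slide 2. Quantile normalization gave 0.06 (SE 0.16) and the authors' deposited values gave 0.05 (SE 0.16). In the deposited table Nlrp3 stood at 4.23, 4.15 and 4.19 in the controls and at 4.11, 4.36 and 4.26 in the peptide arrays, a log2 scale on which peptide 2 and 3 are the highest and no longer the lowest. Median scaling gave -0.07 (SE 0.16). Normexp background correction was run on the raw median signal and local background of each spot, not on the processed signal. It adds an offset of 50, which is more than the mean processed Nlrp3 signal of any array. With normexp and the 75th percentile the Nlrp3 value moved the other way. There it was -0.83 (SE 0.41, limma unadjusted p = 0.0631, adjusted p = 0.249), and the median difference of all tested probes was -0.49. The adjusted limma p of Nlrp3 ran from 0.249 to 1 over all alternatives, and no direction is assigned to it.

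Ptk2b kept a value below 0 under every scaling between arrays, at -0.14 (SE 0.27) after quantile normalization, -0.13 (SE 0.26) in the deposited table and -0.1 (SE 0.3) after median scaling, and was at 0.03 (SE 0.3) with no scaling. Its deposited log2 values were 7.01, 6.38 and 6.75 in the controls and 6.63, 6.94 and 6.17 in the peptide arrays. Peptide 3 is the lowest there too, and peptide 2 lies within the controls. These scalings share the same arrays, and without peptide 3 the difference of the main analysis was -0.02 (SE 0.38). No direction is assigned to Ptk2b either. The adjusted limma p ran from 0.372 to 1 over the alternatives.

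**Figure D3:**
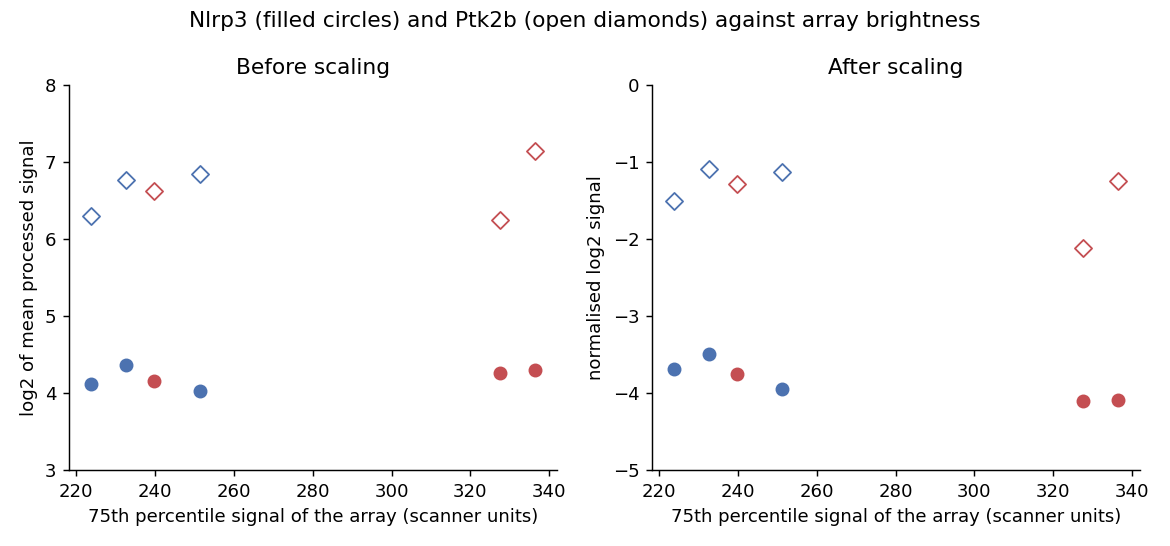
Log2 signal of Nlrp3 (filled circles) and Ptk2b (open diamonds) against the 75th percentile signal of each array in scanner units, before scaling (left) and after subtracting that percentile (right), with controls in blue and peptide in red. The pair of peptide arrays on the far right is slide 2, where Nlrp3 is level with slide 1 before scaling and below it afterwards.

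The log2 ratio of both signals on an array is free of any single scaling factor per array, and its change between groups was tested. Nlrp3 minus Ptk2b was -2.82, -2.17 and -2.4 in the controls and -2.47, -2.84 and -1.99 in the peptide arrays. Peptide 2 was the lowest of the 6 and peptide 3 the highest, and both lay outside the range of the controls. The group means were -2.46 ± 0.33 and -2.43 ± 0.43 (SD, n = 3 each), a change of 0.03 with an exact permutation p of 1 (two-sided). No shift of either gene relative to the other was measured beyond the spread of the arrays.

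**Figure D4:**
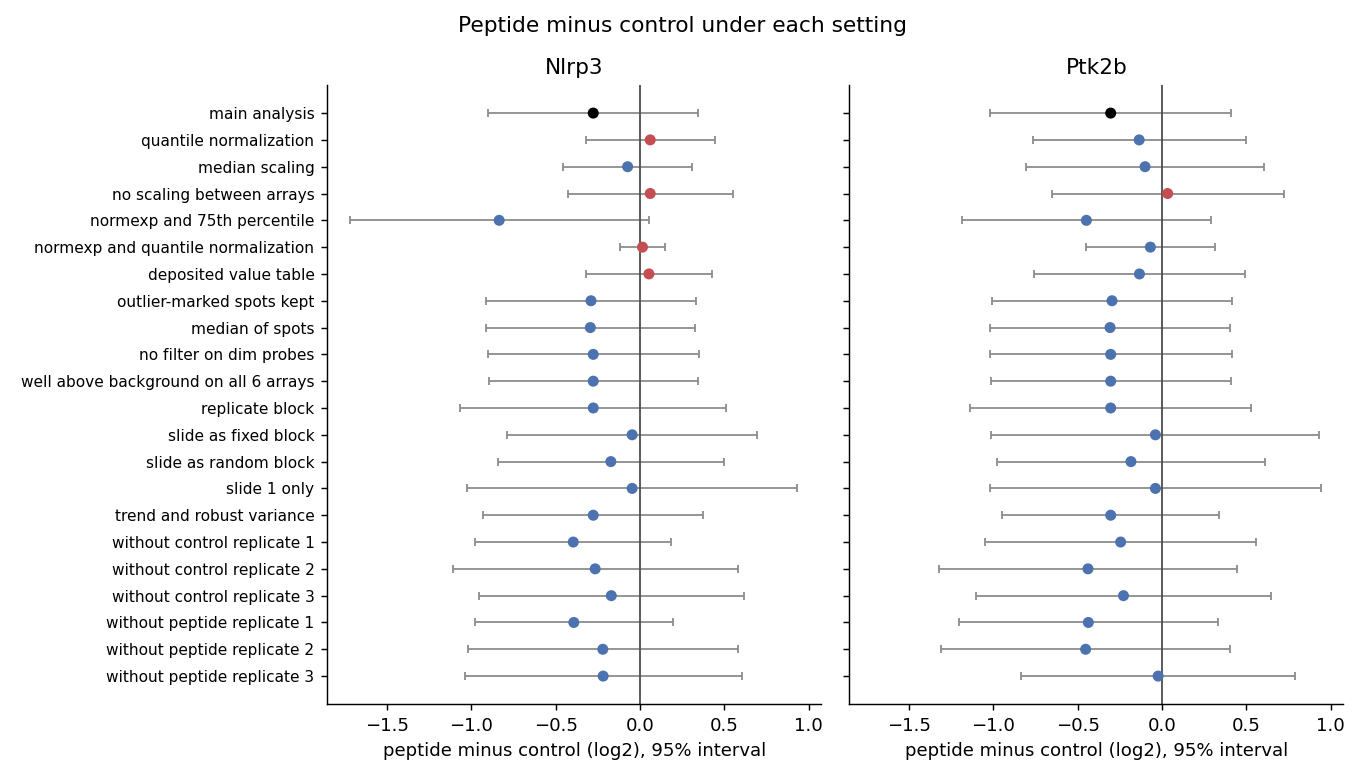
Peptide minus control difference (log2) of Nlrp3 and Ptk2b with its 95% interval from limma, in the main analysis (black) and under each alternative (blue below 0, red above 0). The intervals include 0 throughout, and the points of both genes fall on both sides of 0. For Ptk2b only the point with no scaling between arrays lies above 0.

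Over the 6 arrays, the named genes whose normalised signal was most like that of Nlrp3 were the scaffold protein Dlg4 (Pearson r = 0.99), the luteinizing hormone receptor Lhcgr (r = 0.98) and the microtubule-associated protein Map2 (r = 0.98). An r above 0.8 with Nlrp3 was found for 36.1% of all tested probes, and after quantile normalization the values for these genes were -0.55, -0.84 and 0.48. The likeness thus changed with the scaling, which all probes of an array share. Those most like Ptk2b were the pyruvate dehydrogenase kinase Pdk3 (r = 0.87), the fibroblast growth factor Fgf2 (r = 0.78) and the neurotrophic factor Gdnf (r = 0.69). After quantile normalization these were at 0.86, 0.58 and 0.62, and 2.98% of the tested probes had an r above 0.8 with Ptk2b. Nlrp3 and Ptk2b correlated with each other at r = 0.47, or 0.3 after quantile normalization.

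The other genes of both pathways could not be read by name. Of 29 inflammasome genes, from the adaptor Pycard and Casp1 to Il1b, Il18 and Gsdmd, 1 had a named probe, Nlrp3 itself. Of 37 genes of angiotensin and Pyk2 signalling, among them the receptor Agtr1a and the kinases Src and Ptk2, 1 had a named probe, Ptk2b itself. The lists for smooth muscle, endothelium, macrophages, neutrophils, T cells, fibroblasts, adipocytes and red cells had 0 named probes, and of 3 neuronal markers 1 (Map2) had a named probe. The labelled tissue was thus not checked by markers, and in these bulk samples fewer cells of a type cannot be told apart from less RNA per cell.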

How the data were processed

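Per the labels' protocols, ribosomal RNA was removed, and the remaining RNA was amplified with random primers and labelled with Cy3. The deposited scanner files hold spot intensity. Per the file headers it comes from Agilent Feature Extraction 11.0.1.1 and is background-subtracted, with no scaling between arrays. The authors' deposited table holds log2 values with equal quartiles in every column (median 6.3419). Its columns correlated with their own arrays' scanner values at 0.997 or above, and the way spots were joined into probes was not given in the sources used here. The deposited spot flags served as other measures. The share of a probe's spots flagged well above background decided whether the probe was called so on an array.

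Control and outlier spots were left out, spots of a probe were averaged on the log2 scale, and each array's 75th percentile was subtracted. A probe was tested if 3 or more of the 6 arrays held it well above background, which left 37723. They were fitted together with lmFit and eBayes of limma 3.58.1 (R 4.3.3), with two-sided p-values adjusted over all of them by Benjamini-Hochberg. Both genes passed that filter on all arrays. Of 50 catalogue probes, 30 matched a gene. For likeness, the rule names the 3 named genes with the highest Pearson r for each member. The members, lists and rule were chosen with earlier results of these data known. The fit was tested on simulated arrays. Figures used matplotlib 3.10.9 in Python 3.11.15.

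The deviations of same-numbered arrays of both groups correlated at -0.013, -0.19 and -0.236, so the numbers show no pairing. Peptide 2 and 3 were on another slide than all controls, so these values cannot exclude one.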

Additional observations from a re-analysis of the deposited data

How the results depend on the processing

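Neither gene passed the adjusted threshold under any of the 21 alternatives run. The Nlrp3 difference turned to 0.0609 after quantile normalization, to 0.0609 with no scaling, to 0.015 with normexp and quantile normalization and to 0.0532 in the deposited table, and the Ptk2b difference turned to 0.0332 with no scaling. The Nlrp3 value furthest from 0 was -0.83, with normexp and the 75th percentile, where the median of all probes was -0.49. Normexp was run on the raw signals, not the processed ones, and adds an offset of 50 to each. Leaving out 1 array gave -0.4 to -0.17 for Nlrp3 and -0.45 to -0.02 for Ptk2b. The change of the Nlrp3 to Ptk2b ratio became -0.39 under normexp with 75th percentile scaling and -0.0069 with the slide as a block or slide 1 only, and leaving out 1 array gave -0.19 to 0.23. When 1 array was left out, 0 to 4 probes passed the adjusted threshold. The count at an unadjusted p under 0.05 was 5908 with normexp and the 75th percentile, 637 with the slide as a block, 255 with the slide as a random block and 387 on slide 1 only, and leaving out 1 array gave 238 to 9149. The cause of these changes was not tested. With the replicate block the differences were -0.28 (SE 0.36) for Nlrp3 and -0.3 (SE 0.38) for Ptk2b, 0 probes passed and no call changed. No alternative that was planned was left out.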
